A study of Xenopus laevis with 25 samples.

Results

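The spliceosome and splicing factor genes of Xenopus embryos were followed after knockdown of RNF20. They comprise every transcript whose gene symbol begins with one of 7 sets of names: sf3a or sf3b with a number, snrp, srsf with a number, prpf with a number, hnrnp, u2af, and lsm with a number. The rule used names only and no measured value. It took 103 of 22891 transcripts, which carry 77 of 13563 symbols. Of these, 102 transcripts and all 77 symbols had enough reads to be tested; the transcript left untested belongs to lsm4 and was listed at 0 in all 25 libraries. The embryos were RNF20 morpholino embryos (3 libraries per hour) and wild-type embryos (2 libraries per hour), taken at 12, 13, 14, 15 and 16 hours post fertilization (hpf). The labels give Xenopus laevis, embryos and poly-A selected RNA. They enter morpholino injection for every sample without saying whether wild-type embryos were injected, and they name no control morpholino, dose or number of embryos in a library. An effect of injection therefore cannot be told apart from an effect of RNF20. Nothing in the labels says that libraries came from separate clutches, so p-values measure the spread between these libraries, which may be technical.

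The spliceosome removes introns from pre-mRNA. It is built anew on each intron from small nuclear ribonucleoproteins (snRNPs), each a short RNA wrapped by a ring of Sm or Lsm proteins and dressed with proteins of its own: the U1 snRNP finds the start of the intron, the U2 snRNP with its SF3A and SF3B complexes finds the branch point, and the tri-snRNP with the Prp proteins brings in the catalytic centre. SR proteins bind exons and mostly favour the use of nearby splice sites, while hnRNP proteins coat the transcript and often oppose it, so their balance sets which exons are kept. RNF20 is the ubiquitin ligase that, together with RNF40, marks histone H2B with ubiquitin along transcribed genes, and splicing takes place largely while those genes are being transcribed. A morpholino is an antisense oligomer that blocks translation or splicing of its target without degrading the RNA.

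The morpholino libraries held 14751700 to 36150600 estimated counts and the wild-type libraries 12757700 to 22034000. At 12 hpf the rnf20 transcript had 66.6, 77.6 and 101.1 CPM (counts scaled by library size) in morpholino replicates 1, 2 and 3, against 48.5 and 38.2 CPM in wild-type embryos. At 16 hpf it had 72.7, 67.1 and 55.4 CPM against 80.04 and 69.3 CPM. Its difference was 0.92 log2 units at the first of these hours and -0.20 at the last, neither past the test, and 0.31 ± 0.09 on the average (SE, adjusted p = 0.0200, edgeR). Its RNA does not check the knockdown. The defining genes of ectoderm, mesoderm and endoderm on the marker list (sox2, sox3, krt12, tfap2a, tbxt, myod1, actc1, sox17a, gata4 and foxa2) were present in all libraries. In bulk samples such as these, fewer cells of a type and less RNA per cell cannot be told apart. For the splicing factors as a group, morpholino replicate 3 lay above replicates 1 and 2 at every hour, least clearly at 12 hpf. Relative to the wild-type mean of the same hour, the median splicing factor transcript lay 0.34, 0.61, 0.58, 0.52 and 1.40 log2 units higher in morpholino replicate 3 at the 5 hours in turn. The same median lay between -0.01 and 0.23 in replicate 1 and between 0.07 and 0.22 in replicate 2. At 12 hpf it was -0.01, 0.20 and 0.34 in replicates 1, 2 and 3. Not every class followed: at 15 hpf the Sm median was -0.07 in replicate 3, against 0.24 and 0.13 in replicates 1 and 2. The main counts and the leading transcripts are therefore given also without morpholino replicate 3, a setting with 10 morpholino and 10 wild-type libraries. What sets that replicate apart was not tested.

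As a group, splicing factor transcripts were more abundant in morpholino embryos than in wild-type embryos of the same hour. On the average over the 5 hours, 33 of the 102 tested transcripts rose and 0 fell at an adjusted p under 0.05 (edgeR quasi-likelihood test, Benjamini-Hochberg adjustment over all 16967 tested transcripts). Of all tested transcripts, 13.9% rose and 13.1% fell in the same comparison. The median difference of the splicing factor transcripts was 0.34 log2 units, with 88 of 102 above zero, and the median of all tested transcripts was -0.003. Abundant transcripts as a whole leaned upwards: of the 3086 with a mean of at least 64 CPM, 25.2% rose and 6.71% fell, with a median of 0.16. Among the 74 splicing factor transcripts of that abundance, 30 rose and 0 fell, with a median of 0.38. The count leaned on wild-type replicate 1: leaving out that library at any 1 hour left 11 to 13 of the 102 transcripts risen. It was 20, 19 and 16 without morpholino replicate 3 at 12, 13 and 14 hpf. Leaving out morpholino replicate 1, 2 or 3 at 16 hpf kept all 33 calls and added 11, 10 and 8. Without wild-type replicate 1 at any 1 hour, all 33 stayed above zero, with medians of 0.53 to 0.55 log2 units against 0.57. Such a fit keeps 1 wild-type library at that hour, and its calls among all tested transcripts are not given here. Libraries of one replicate number deviated together across hours in most cases, and the test takes them as independent. With the replicate number as a block, 12 transcripts rose and 2 fell, against 9.47% and 10.7% of all tested transcripts. The median was 0.12. The calls of snrpd3, snrpc, srsf2, hnrnpa1 and both transcripts of srsf4 were among those lost, and 0 Sm and 1 hnRNP transcript were called. Replicate 3 has no wild-type library, so in that fit the average difference rests on replicates 1 and 2. The block also pairs those replicates across the arms, a pairing that is unsettled. With 1 sum over the hours per replicate, 3 morpholino against 2 wild-type sums, 0 of 102 were called (edgeR), and 5 had an unadjusted p under 0.05. Of all 18126 transcripts tested there, 0 were called and 1924 had an unadjusted p under 0.05 (edgeR).

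The shift was smaller and no longer all one way once morpholino replicate 3 was left out. Then 39 of the 102 transcripts rose and 8 fell, against 17.7% and 19.1% of all tested transcripts, and the median was 0.10. Of the 33 transcripts called with all libraries, 30 were still called, and the median difference of the 33 was 0.23 in place of 0.57 log2 units. The lower transcripts included those of prpf19, lsm5, prpf31 and srsf5, the pair of prpf39.1, and 1 transcript of srsf12.

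**Figure D1:**
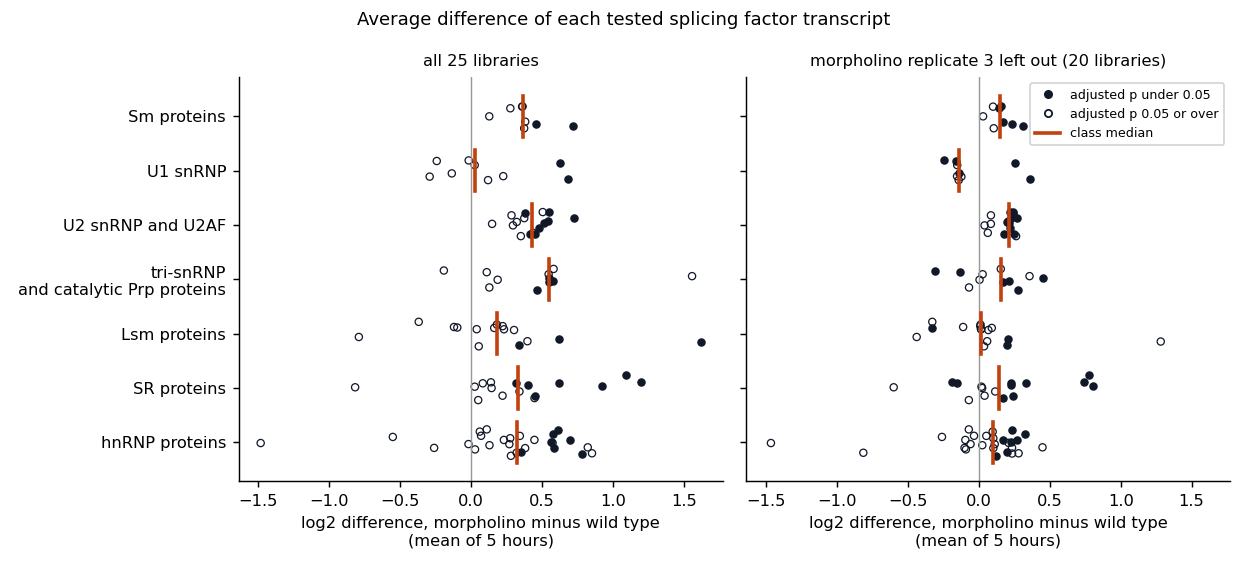
Average log2 difference (morpholino minus wild type, mean of the 5 hourly differences, horizontal axis) of each tested splicing factor transcript, by class (vertical axis). The left panel uses all 25 libraries and the right panel leaves out morpholino replicate 3. Each circle is 1 transcript, filled where the adjusted p was under 0.05, and the bar is the class median. The median over all 102 transcripts is 0.34 on the left and 0.10 on the right, and 8 filled circles lie below zero on the right.

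The Sm proteins form the ring around the U1, U2, U4 and U5 RNAs. All 8 of their transcripts lay above zero, with a median of 0.37 log2 units, and 2 rose, those of snrpd3 and snrpd1. The snrpd3 transcript (ENSXETT00000053564.1) had a lowest, median and highest level of 128, 201.5 and 829 CPM in morpholino embryos, against 105, 144 and 189 CPM in wild-type embryos. The highest value came from morpholino replicate 3 at 16 hpf, and at each hour every morpholino library lay above both wild-type libraries. The difference was 0.72 ± 0.24 log2 units (SE, adjusted p = 0.0372, edgeR), and without morpholino replicate 3 it was 0.31 with an adjusted p of 0.00378 (edgeR). In that setting 5 of the 8 Sm transcripts rose and 0 fell.

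U1 snRNP proteins were divided. Of the 9 transcripts, 2 rose and 0 fell, and the median was 0.03. The risen pair encodes the U1-specific proteins U1-C (snrpc, ENSXETT00000053216.1), which helps the U1 RNA pair with the start of the intron, and U1-A (snrpa, ENSXETT00000005513.2), which binds a stem-loop of the U1 RNA. In morpholino embryos snrpc had 322, 454 and 518 CPM at 12 hpf in replicates 1, 2 and 3, against 276 and 316 CPM in wild-type embryos; at 16 hpf it had 234, 241 and 872 CPM against 188 and 204 CPM. The arms were apart at every hour except 14 hpf, where morpholino replicate 1 lay just below the higher wild-type library. Its difference was 0.69 ± 0.19 log2 units (SE, adjusted p = 0.0161, edgeR), and 0.36 without morpholino replicate 3. The snrpa transcript ranged from 163 to 486 CPM with a median of 253 CPM in morpholino embryos, against 147 to 234 CPM with a median of 188 CPM in wild-type embryos, a difference of 0.63 ± 0.19 log2 units (SE, adjusted p = 0.0209, edgeR), and of 0.26 without that replicate. It was higher in all morpholino libraries of each hour. Transcripts of prpf39.1 and prpf40b, named after yeast proteins of the U1 snRNP, did not pass the test, with differences of -0.24 and -0.13 log2 units for the pair of prpf39.1 and -0.29 for prpf40b. Summed over its transcripts, prpf39.1 fell by 0.21 log2 units (adjusted p = 0.0289, edgeR), the sole symbol of the 77 that fell, and without morpholino replicate 3, 3 of the 9 U1 transcripts fell.

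The U2 snRNP and U2AF class held the largest share of risen transcripts. Of its 16 transcripts 8 rose, all 16 lay above zero, and the median was 0.43 log2 units. Risen members were sf3b1, SF3B3, both transcripts of sf3b4, sf3a2, sf3a3, 1 of the pair of sf3a1 and 1 of the pair of snrpb2. SF3B1, the subunit that clamps the branch point helix, had the smallest adjusted p of them. Its transcript (ENSXETT00000029260.3) had 645, 715 and 825 CPM in morpholino replicates 1, 2 and 3 at 12 hpf, against 587 and 586 CPM in wild-type embryos. At 14 hpf it had 562, 573 and 802 CPM against 431 and 485 CPM, and at 16 hpf 486, 472 and 536 CPM against 431 and 428 CPM. All morpholino libraries lay above both wild-type libraries at every hour, although the arms overlap once hours are pooled. The difference was 0.38 ± 0.09 log2 units (SE, adjusted p = 0.00585, edgeR), and without morpholino replicate 3 it was 0.24 with an adjusted p of 0.000249 (edgeR). SF3B3 (ENSXETT00000064475.1), a scaffold of the same complex, ranged from 549.9 to 1044 CPM with a median of 747 CPM in morpholino embryos, against 461 to 701 CPM with a median of 567 CPM in wild-type embryos. It differed by 0.45 ± 0.12 log2 units (SE, adjusted p = 0.0111, edgeR), by 0.25 without morpholino replicate 3, and was apart at every hour. The U2AF subunits, which read the polypyrimidine tract and the end of the intron, did not pass the test, with 0.30 for u2af1 and 0.15 for u2af2. When morpholino replicate 3 was left out, 11 of the 16 transcripts rose and 0 fell, with a median of 0.22.

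Among the tri-snRNP and catalytic Prp proteins, 4 of 11 transcripts rose, with a median of 0.55 log2 units: prpf3, prpf4b, prpf38b and 1 of the pair of prpf6. PRPF4B is a kinase that phosphorylates tri-snRNP proteins. Its transcript (ENSXETT00000024917.3) had 315, 332 and 400.1 CPM in morpholino replicates 1, 2 and 3 at 12 hpf, against 253 and 269 CPM in wild-type embryos. At 15 hpf it had 214, 218 and 307 CPM against 149 and 163 CPM. At 16 hpf it had 197, 176 and 94.0 CPM against 138 and 152 CPM, so that morpholino replicate 3 dropped below wild type while the other two stayed above it. The average difference was 0.55 ± 0.13 log2 units (SE, adjusted p = 0.00591, edgeR) and 0.45 without morpholino replicate 3 (adjusted p = 1.52e-05, edgeR). The prpf38b transcript (ENSXETT00000011494.3) ranged from 65.3 to 147 CPM with a median of 90.9 CPM in morpholino embryos, against 56.4 to 94.0 CPM with a median of 69.0 CPM in wild-type embryos. It was higher by 0.46 ± 0.11 log2 units (SE, adjusted p = 0.00633, edgeR), by 0.28 without morpholino replicate 3, and was apart at every hour. In that setting 4 of the 11 transcripts of the class rose and 2 fell, with a median of 0.15.

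PRPF19, the ubiquitin ligase at the centre of the PRP19 complex, went against its class once morpholino replicate 3 was left out; it is named here after its values were seen. In morpholino replicates 1 and 2 its transcript (ENSXETT00000026115.3) had 169 and 188 CPM at 12 hpf, against 228 and 235 CPM in wild-type embryos. At 16 hpf it had 137 and 141 CPM against 176 and 183 CPM. Morpholino replicate 3 had 237, 246, 229.6, 209.6 and 109.7 CPM over the 5 hours, above the wild-type libraries up to 15 hpf and below them at 16 hpf. With all libraries the difference was -0.19 ± 0.09 log2 units (SE) and did not pass the test (adjusted p = 0.124, edgeR). Leaving out that replicate made it -0.31 ± 0.03 (SE, adjusted p = 1.30e-05, edgeR), and it was also called at 12, 14, 15 and 16 hpf taken singly, with adjusted p values of 0.0101, 0.0447, 0.0255 and 0.0172 (edgeR). PRPF8, the scaffold of the catalytic centre, did not pass the test in either setting, at 0.13 with all libraries and -0.07 log2 units without that replicate.

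Few Lsm transcripts passed the test. LSM2 to LSM8 hold the end of the U6 RNA, LSM1 replaces LSM8 in the ring that starts mRNA decay, LSM10 and LSM11 belong to the U7 snRNP of histone mRNA processing, and LSM14 proteins sit in cytoplasmic granules. Of 15 transcripts 3 rose, with a median of 0.18: lsm3, lsm12 and 1 of the pair of lsm14b. That lsm14b transcript was scarce, with a median of 10.6 CPM in morpholino embryos against 4.14 CPM in wild-type embryos, and its call was lost without morpholino replicate 3. Lsm3 had 0.62 ± 0.22 log2 units (SE, adjusted p = 0.0485, edgeR) and 0.21 without morpholino replicate 3. In that setting 2 Lsm transcripts rose and 1 fell, that of lsm5, at -0.33 (adjusted p = 0.00724, edgeR).

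SR proteins held the members with the firmest test results. Of their 16 transcripts 7 rose, with a median of 0.33 log2 units, and the 3 smallest adjusted p values of all splicing factors were theirs. The main srsf5a transcript (ENSXETT00000038885.2) had 81.9, 80.2 and 93.0 CPM in morpholino replicates 1, 2 and 3 at 12 hpf, against 45.2 and 44.5 CPM in wild-type embryos. At 13 hpf it had 84.4, 82.5 and 89.3 CPM against 43.8 and 42.7 CPM. At 14 hpf it had 74.7, 66.4 and 79.7 CPM against 47.0 and 39.0 CPM. The arms were already far apart at the earliest hour, with little scatter within either. At 15 hpf it had 74.5, 66.0 and 57.9 CPM in morpholino embryos against 47.7 and 38.0 CPM in wild-type embryos, and at 16 hpf 73.4, 73.6 and 166 CPM against 47.3 and 37.8 CPM. It was the sole splicing factor transcript whose 15 morpholino libraries all lay above all 10 wild-type libraries, a separation that 0.542% of all tested transcripts showed; 0 splicing factor transcripts lay wholly below, against 0.749%. The difference was 0.92 ± 0.12 log2 units (SE, adjusted p = 8.29e-05, edgeR) and 0.81 ± 0.06 without morpholino replicate 3 (SE). Its relative srsf5, which shares the name but is counted on a transcript of its own, did not pass the test with all libraries (0.08), and was lower without morpholino replicate 3 (-0.15, adjusted p = 0.0109, edgeR).

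SRSF1, the SR protein that defines many exons and promotes their inclusion, was higher on both of its transcripts. The abundant one (ENSXETT00000062041.1) had 1358, 1986 and 2441 CPM in morpholino replicates 1, 2 and 3 at 12 hpf, against 921 and 1114 CPM in wild-type embryos. At 14 hpf it had 960.3, 1192 and 2087 CPM against 604 and 710.0 CPM. At 16 hpf it had 701, 734 and 2580.4 CPM against 469 and 468 CPM. Levels declined over the hours in wild type and in morpholino replicates 1 and 2, with the morpholino libraries higher at each hour, while replicate 3 stayed near its 12 hpf level. The difference was 1.20 ± 0.23 log2 units (SE, adjusted p = 0.00205, edgeR), and 0.74 without morpholino replicate 3 (adjusted p = 2.26e-05, edgeR). The minor srsf1 transcript (ENSXETT00000019608.2) differed by 1.10 ± 0.20 log2 units (SE, adjusted p = 0.00119, edgeR), with 24.2 to 97.6 CPM in morpholino embryos against 15.9 to 38.0 CPM in wild-type embryos. Further risen SR transcripts were those of srsf2 (0.62 ± 0.18, adjusted p = 0.0181, edgeR), srsf6 (0.45 ± 0.12, adjusted p = 0.0111, edgeR) and both of srsf4 (0.40 and 0.31). Without morpholino replicate 3 these differences were 0.33 for srsf2, 0.24 for srsf6 and 0.23 for each of srsf4, all still called. The first srsf4 call was lost without wild-type replicate 1 at 12 or 13 hpf (adjusted p up to 0.0557, edgeR). Srsf2, which is among the most abundant of the class, ranged from 1603 to 5397 CPM with a median of 2699 CPM in morpholino embryos, against 1344 to 2521 CPM with a median of 1844 CPM in wild-type embryos. With that replicate left out, 8 SR transcripts rose and 2 fell.

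**Figure D2:**
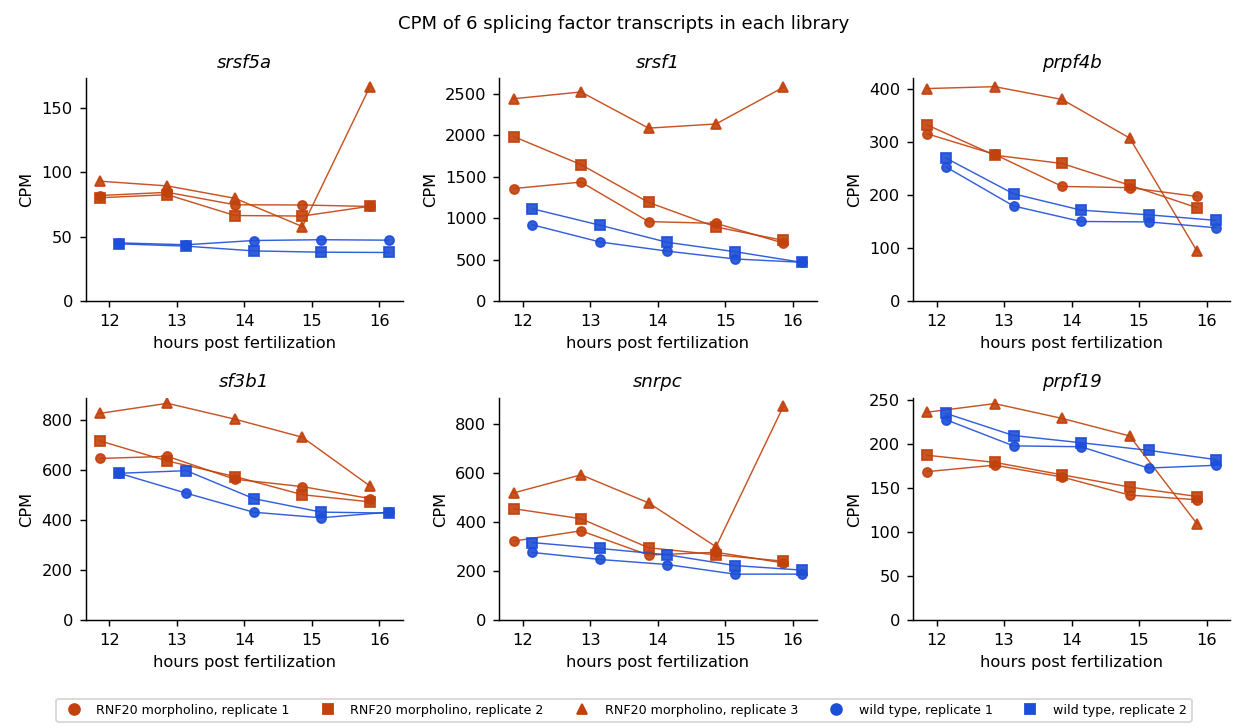
CPM (vertical axis, from 0) of 6 splicing factor transcripts in each library by hours post fertilization (horizontal axis). Orange symbols are the morpholino libraries, blue symbols the wild-type libraries, and lines join libraries of the same replicate number. The srsf5a levels of the arms do not overlap at any hour, srsf1 declines in all series but morpholino replicate 3, and prpf19 is lower than wild type in morpholino replicates 1 and 2 at every hour.

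The hnRNP proteins were the largest class and included the most abundant splicing factor transcripts. Of 27 transcripts 7 rose and 0 fell, with a median of 0.32 log2 units: hnrnpa0, hnrnpab, hnrnpdl and single transcripts of hnrnpa1, hnrnpa2b1, hnrnph3 and hnrnpu. Per length, summed over transcripts, hnrnpa1 had the highest mean level, 4779 TPM (an abundance scaled by transcript length and library size) in morpholino embryos and 3982 TPM in wild-type embryos, and hnrnpab followed with 4240 and 3864 TPM. The lowest was prpf40b, with 0.705 and 0.982 TPM. The main hnrnpa1 transcript (ENSXETT00000046024.3), whose protein binds exonic silencers, ranged from 2289 to 8445 CPM with a median of 3782 CPM in morpholino embryos, against 1728 to 3756 CPM with a median of 2724 CPM in wild-type embryos. The arms overlapped widely once hours were pooled, and the highest value was again morpholino replicate 3 at 16 hpf. It differed by 0.58 ± 0.18 log2 units (SE, adjusted p = 0.0252, edgeR) and by 0.32 without that replicate (adjusted p = 0.00885, edgeR). Its call was lost without wild-type replicate 1 at any 1 hour (adjusted p up to 0.0652, edgeR). The hnrnpab transcript, at 0.35 ± 0.12 (SE, adjusted p = 0.0451, edgeR), was near the threshold, and leaving out 1 library ended its call in 17 of 25 cases (adjusted p up to 0.104, edgeR). The hnrnpk transcript, of a protein that binds C-rich stretches, had 0.38 ± 0.17 log2 units and did not pass the test (adjusted p = 0.101, edgeR). Members of the hnRNP A family are close in sequence, and how the counting divided reads between them was not tested. With 10 libraries in each arm, the class had 7 risen and 0 lower transcripts, with a median of 0.10, but not the same 7. The calls of hnrnpa0 (adjusted p = 0.0512, edgeR) and hnrnpu (adjusted p = 0.0551, edgeR) were lost. Those of hnrnpm and a transcript of hnrnph1 (ENSXETT00000066452.1) were gained.

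**Figure D3:**
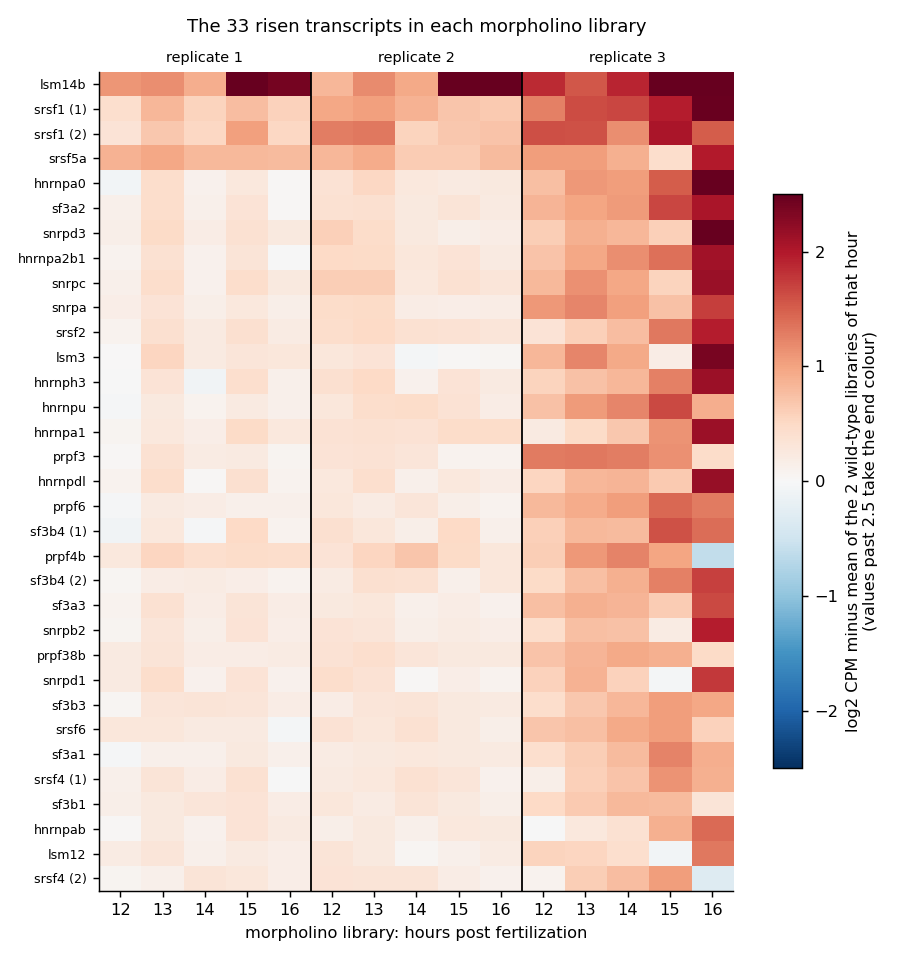
Log2 CPM of the 33 risen transcripts in each morpholino library minus the mean of both wild-type libraries of the same hour (colour, red is higher in the morpholino library). Rows are transcripts, numbered where a symbol has more than 1 here, and columns are the 5 hours of morpholino replicates 1, 2 and 3. Replicates 1 and 2 are pale red in most cells and replicate 3 is darker, most of all at 16 hpf, where prpf4b and 1 srsf4 transcript are below wild type.

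Counts summed per symbol gave a like picture. Of 77 symbols 34 rose and 1 fell, against 18.5% and 18% of all 11886 tested symbols, with a median of 0.36 log2 units. The slopes over the hours fell for 12 symbols in the morpholino arm, against 10.5% of all symbols falling and 15.4% rising, and for 4 in wild type, lsm14a, srsf4, srsf10 and srsf11, against 2.53% falling and 4.18% rising. A sum does not depend on how reads were shared out among transcripts of a gene. The identifiers have the form used for Xenopus tropicalis while the labels give Xenopus laevis, a species with duplicated chromosomes. In the RefSeq table for the Xenopus laevis v10.1 assembly, 54 of the 77 symbols had both copies, L and S, 22 had 1 and 1 had none, so most levels here may add up a pair of genes.

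No single hour gave a call. With all libraries, 0 of 102 transcripts passed the test at 12, 13, 14, 15 or 16 hpf (edgeR), and 4, 6, 5, 12 and 41 had an unadjusted p under 0.05. DESeq2 called 1 higher at 13 hpf, and 1 higher and 1 lower at 16 hpf. For the unadjusted p-values and for DESeq2, the shares of all tested transcripts at each hour are not given here. Few transcripts of any kind were called at 1 hour by edgeR at an adjusted p under 0.05. The share of all tested transcripts called higher was 0.0236%, 0.0295%, 0.0648%, 0.0472% and 0.13% over the 5 hours, and the share called lower was 0.0236%, 0.0589%, 0.0589%, 0.0472% and 0.0707%. The median differences were 0.18, 0.36, 0.19, 0.26 and 0.67 log2 units. The last of these leaned on morpholino replicate 3. Relative to the wild-type mean at 16 hpf, the median transcript lay 0.05, 0.09 and 1.40 log2 units higher in morpholino replicates 1, 2 and 3. At 13 hpf, 59 of 102 splicing factor transcripts had all 3 morpholino libraries above both wild-type libraries and 3 had them below, against 23.8% and 26.2% of all tested transcripts. At 12 hpf 30 lay above and 4 below, against 16.3% and 17.5% of all. At 14 hpf 24 lay above and 3 below, against 18.7% and 20.3% of all. At 15 hpf 35 lay above and 6 below, against 17.3% and 21.6%, and at 16 hpf 33 above and 9 below, against 12.6% and 19%. More splicing factor transcripts were thus apart upwards than downwards at each hour, while the table as a whole held more below than above. Over all 5 hours, 11 transcripts were apart upwards every time, those of prpf38b, sf3a3, sf3b1, SF3B3, snrpa, snrpb2, snrpd3, srsf2, srsf5a and the pair of srsf1, against 3.44% of all tested transcripts, and 0 were apart downwards every time, against 4.47%. In the fit without morpholino replicate 3, 14 transcripts rose at 13 hpf and 0 fell, against 6.37% and 7.08% of all. At the other hours at most 4 rose, against 2.01%, 2%, 1.79% and 1.25% of all at 12, 14, 15 and 16 hpf. Lower calls over the 5 hours came to 4, against 2.37%, 1.83%, 1.36% and 1.09% of all at 12, 14, 15 and 16 hpf. The srsf5a transcript was called at every hour in that setting, with differences of 0.85, 0.95, 0.72, 0.71 and 0.80 log2 units, and srsf1 at every hour but 16 hpf.

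In the authors' deposited table for each hour, made with sleuth, 1, 3, 1, 0 and 0 splicing factor transcripts were higher at a q-value under 0.05 over the 5 hours, and 0 were lower at any. Those were srsf5a at 12, 13 and 14 hpf, with log2 effects of 0.92, 0.98 and 0.79 in the authors' deposited table, and srsf1 (1.17) and sf3b6 (0.56) at 13 hpf. Of all transcripts in the authors' deposited table, 0.575% at 12 hpf, 3.14% at 13 hpf, 0.692% at 14 hpf, 0.445% at 15 hpf and 0.0372% at 16 hpf were higher at that q-value. The authors' deposited table had 0.258%, 2.68%, 0.368%, 0.158% and 0.00619% lower.

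Splicing factor transcripts became scarcer over these hours. Their summed share of all counts at 12 hpf was 4.67%, 5.23% and 5.54% in morpholino replicates 1, 2 and 3, against 4.57% and 4.997% in wild-type embryos. At 14 hpf it was 4.13%, 4.33% and 5.29% against 3.82% and 4.28%. At 16 hpf it was 3.45%, 3.65% and 6.02% against 3.19% and 3.54%. The share was lower at each later hour in both wild-type replicates and ended lower in morpholino replicates 1 and 2. In morpholino replicate 3 it also declined up to 15 hpf, to 5.06%, and only the 16 hpf library lay above the start. In that library the median of all tested transcripts was -0.25 log2 units relative to the wild-type mean of its hour. From 12 to 16 hpf the median splicing factor transcript changed by -0.46, -0.61 and 0.45 log2 units in morpholino replicates 1, 2 and 3, and by -0.53 and -0.54 in the wild-type replicates. It was lower at 16 than at 12 hpf for 92, 96 and 33 of 102 transcripts in morpholino replicates 1, 2 and 3, and for 91 and 95 in the wild-type replicates. Of all tested transcripts, 47.7%, 50% and 49.9% were lower in the 3 morpholino replicates and 46.9% and 49.6% in the wild-type replicates.

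**Figure D4:**
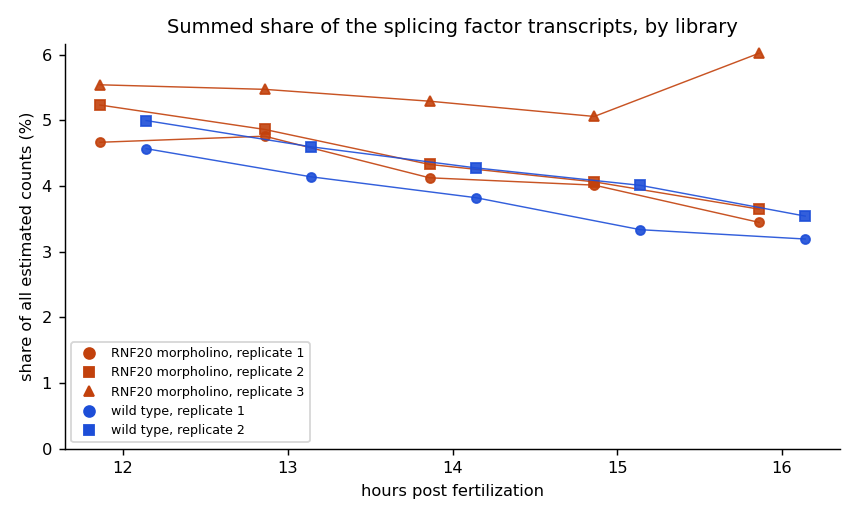
Share of all estimated counts (percent, vertical axis, from 0) held by the 103 splicing factor transcripts in each library, by hours post fertilization (horizontal axis). Orange symbols are morpholino libraries, blue symbols wild-type libraries, and lines join libraries of the same replicate number. The share declines in 4 of the 5 series, to between 3.19% and 3.65% at 16 hpf. In morpholino replicate 3 it declines from 5.54% at 12 hpf to 5.06% at 15 hpf and is 6.02% at 16 hpf.

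A straight line through the 5 hours gave 0 risen and 15 fallen transcripts in the morpholino arm (edgeR), against 10.4% and 7.25% of all tested transcripts. Fallen were, among others, prpf3, prpf4b, prpf8, prpf19, prpf31, prpf38b, sf3b1, srsf10 and both transcripts of srsf4. The count was 64 without morpholino replicate 3 at 16 hpf, 5 without it at 12 hpf, and 9 without morpholino replicate 2 at 12 or 16 hpf. Shares of all tested transcripts in those fits are not given here, so these counts are not read as particular to the splicing factors. The median slope was -0.04 log2 units per hour in the morpholino arm and -0.13 in wild-type embryos, where 96 of 102 lay below zero. In wild type 0 of 102 passed the test, while 0.996% of all tested transcripts fell (edgeR). At an unadjusted p under 0.05 there were 28 (edgeR), and DESeq2 called 8 lower. Shares of all tested transcripts by those other measures are not given here. The same replicate number at different hours deviated together in wild type, and a fit with the replicate number as a block within each arm called 29 splicing factor transcripts lower in the morpholino arm and 35 in wild-type embryos, against 14.2% and 8.49% of all tested transcripts. Leaving out morpholino replicate 3, which also enters the shared estimate of spread, 72 fell and 1 rose in the morpholino arm and 70 fell and 2 rose in wild-type embryos, against 21.8% and 19.9% of all tested transcripts falling. The slopes then had medians of -0.14 and -0.13 log2 units per hour. All 8 Sm transcripts fell in the morpholino arm and 7 of the 8 in wild type. The difference between the arms' slopes was called for 0 of 102 transcripts with all libraries (0 with an unadjusted p under 0.05, 0 with DESeq2) and for 0 without morpholino replicate 3, which does not show that the arms declined alike.

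**Figure D5:**
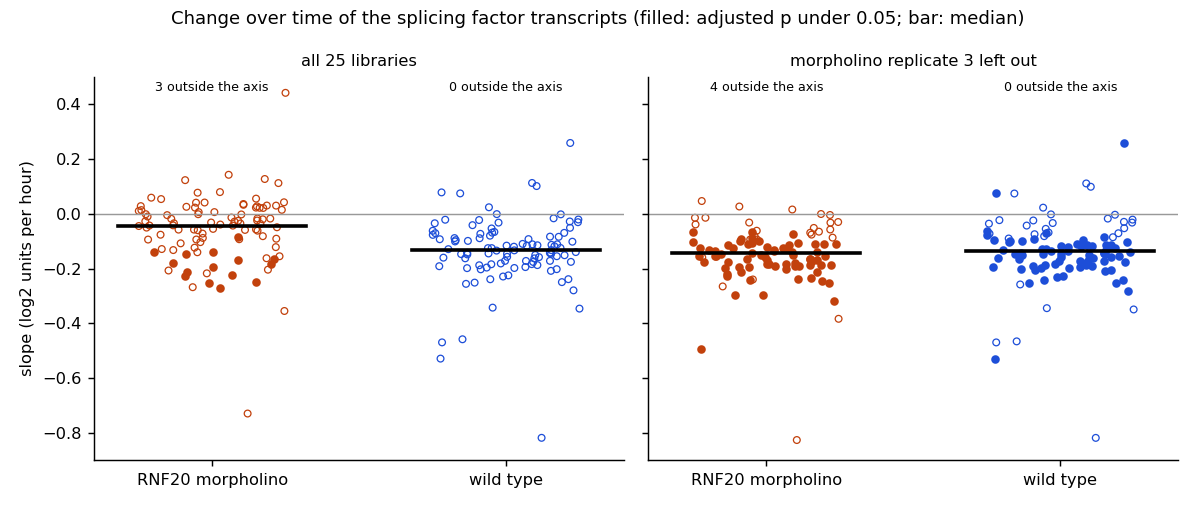
Slopes (log2 units per hour, vertical axis) of the 102 tested splicing factor transcripts in the morpholino arm and in wild type, with all libraries (left panel) and without morpholino replicate 3 (right panel). Filled circles had an adjusted p under 0.05, bars are medians, and the number of transcripts beyond the axis is printed above each column. The medians are -0.04 and -0.13 on the left and -0.14 and -0.13 on the right.

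Since these transcripts decline with time, the morpholino embryos were also set against younger wild-type embryos. Against wild type 1 hour younger, 3 of 102 transcripts rose and 0 fell: srsf5a at 0.90 ± 0.13 log2 units (adjusted p = 0.000578), and the pair of srsf1 at 0.99 ± 0.26 (adjusted p = 0.0307) and 0.84 ± 0.22 (adjusted p = 0.0296; SE, edgeR). Of all tested transcripts 3.36% rose and 2.62% fell. Against wild type 2 hours younger, srsf5a alone was called, at 0.87 ± 0.15 (SE, adjusted p = 0.00401, edgeR), against 1.2% of all transcripts rising. The group median was 0.24 in the first setting and 0.13 in the second. Those comparisons average over fewer hours than the main one, in a fit of all 25 libraries. Limited to 14 to 16 hpf with wild type of the same age, 7 transcripts rose, against 4.58% of all tested transcripts.

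Set against younger wild-type embryos without morpholino replicate 3, more splicing factor transcripts were called lower than higher. By sign alone, 11 of 102 lay above zero against wild type 2 hours younger, and 54 of 102 against wild type 1 hour younger. Against wild type 2 hours younger, 1 transcript rose, srsf5a at 0.71 ± 0.07 (SE, adjusted p = 6.30e-05, edgeR), and 25 fell, with a median of -0.16, while 7.92% of all tested transcripts rose and 9.22% fell. The lower transcripts included prpf19 at -0.49 (adjusted p = 1.04e-05), prpf31 at -0.47 (adjusted p = 3.52e-05), hnrnpk at -0.38 (adjusted p = 0.0107), and prpf8 at -0.37 (adjusted p = 0.00163; edgeR). None of the 8 Sm transcripts was called there, although all 8 lay below zero. Against wild type 1 hour younger, 6 rose and 13 fell, with a median of 0.01, while 8.69% of all tested transcripts rose and 9.47% fell, shares not far from those of the splicing factors. The risen ones were srsf5a, the pair of srsf1, prpf4b, sf3b1 and SF3B3. Whether morpholino embryos differed from wild type in developmental pace was not tested.

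The balance between transcripts of one gene could be tested for 23 symbols with 48 transcripts. With all libraries 0 of 48 were called (edgeR), 4 had an unadjusted p under 0.05, and of all 5448 transcripts in such symbols 0.881% were called. Limma's diffSplice called 2 of the 48, the pair of lsm14b. The smallest adjusted p was 0.137, for the minor hnrnpa1 transcript (ENSXETT00000046022.3). Its share of the counts of hnrnpa1 was 10.4%, 9.02% and 9.85% in morpholino replicates 1, 2 and 3 at 12 hpf, against 12.6% and 12.9% in wild-type embryos, and 11.9%, 10.9% and 5.25% at 16 hpf, against 15.6% and 14.3%. That share was lower in every morpholino library than in both wild-type libraries of its hour. How many of all 5448 transcripts were apart in that way was not counted, and this one was picked for its adjusted p. The lsm14b transcript ENSXETT00000004278.2 held 20.2% to 69.8% of the counts of its gene in the 15 morpholino libraries, against 0% to 34.7% in the 10 wild-type libraries, at only 3.27 to 21.9 CPM over the morpholino libraries (adjusted p = 0.139, edgeR). The minor hnrnph3 transcript (ENSXETT00000050855.3) held 10.1% to 35.7% in morpholino libraries against 33.4% to 40.4% in wild-type libraries (adjusted p = 0.596, edgeR). The 10.1% was morpholino replicate 3 at 16 hpf, and the next lowest morpholino value was 27.7%. Over the hours, usage changed for 0 of the 48 in either arm, with 5 in the morpholino arm and 0 in wild type at an unadjusted p under 0.05, and of all transcripts in such symbols 0.0734% and 0% were called. Poly-A reads summed per transcript do not show introns kept in the RNA, so splicing itself was not measured.

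Other genes of the pathway, in 8 lists of 178 symbols of which 159 were tested, moved the same way in part. Of their 218 transcripts 61 rose and 18 fell, with a median of 0.28 log2 units, beside the 13.9% and 13.1% of all tested transcripts. Against wild type 2 hours younger 0 rose and 6 fell, against 1.2% and 1.03% of all tested transcripts. Without morpholino replicate 3 as well, 2 rose and 57 fell, with a median of -0.12, against 7.92% and 9.22% of all. The replicate block left 23 risen and 17 lower, against 9.47% and 10.7% of all. Sums over the hours left 0, and 0 of all 18126 transcripts were called there. Listed U1, U2 and branch point proteins had 13 risen and 0 lower of 37, with luc7l2 at 0.45 ± 0.06 (adjusted p = 0.000218, edgeR) and luc7l at 0.50 ± 0.12 (adjusted p = 0.00821, edgeR), both U1-associated. Exon junction complex and SR-related proteins had 9 risen and 0 lower of 18, including son and pnn, both nuclear speckle proteins, at 0.50 and 0.49. Listed tri-snRNP proteins had 9 risen and 2 lower of 22, with the U5 helicase gene snrnp200 at 0.56 ± 0.14 (adjusted p = 0.00982, edgeR) and zmat2 at 0.48. The minor spliceosome, which removes a rare class of introns, had 2 risen and 0 lower of 8, snrnp25 and snrnp48, at 0.38 and 0.32. For snRNP assembly and export 3 rose and 2 fell of 20, near the shares of all transcripts, with smn2 at 0.32 and phax at 0.34. None of the risen genes named here was called against wild type 2 hours younger, where luc7l2 had 0.15 (adjusted p = 0.448), luc7l 0.36 (adjusted p = 0.297), snrnp200 0.26 (adjusted p = 0.575) and pnn 0.25 (adjusted p = 0.581; edgeR).

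Some pathway genes fell. The PRP19 complex, catalytic step and release factors had 13 risen and 3 lower of 40, and both transcripts of cwc25, a factor of the branching step, were among the lower ones. The more abundant cwc25 transcript (ENSXETT00000051179.3) ranged from 10.7 to 27.0 CPM with a median of 15.3 CPM in morpholino embryos, against 23.3 to 33.3 CPM with a median of 29.0 CPM in wild-type embryos. It differed by -0.88 ± 0.12 log2 units (SE, adjusted p = 0.000127, edgeR), and by -0.91 against wild type 2 hours younger (adjusted p = 0.00287, edgeR). Regulators of alternative splicing outside the naming rule had 12 risen and 10 lower of 62, near the shares of all transcripts, with rbfox2 at -1.52 ± 0.21 (adjusted p = 0.000116, edgeR) and fubp1 at -0.66 ± 0.11 (adjusted p = 0.00069, edgeR). For rbfox2 the lowest, median and highest morpholino values were 1.05, 3.25 and 6.35 CPM, against 6.11, 7.55 and 11.6 CPM in wild-type embryos. The arms thus overlapped at a low level. SR protein kinases had 0 risen and 1 lower of 11, srpk2 at -0.63, which was -0.19 against wild type 2 hours younger (adjusted p = 0.807, edgeR). Without morpholino replicate 3, 77 transcripts of all 8 lists rose and 30 fell, against 17.7% and 19.1% of all tested transcripts, and the pathway transcripts named here kept their direction and their call.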

How the data were processed

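Per the submitters' processing notes, kallisto and sleuth were used; their versions, options and transcriptome build: not given in the sources used here. Deposited by the authors are estimated counts and TPM per transcript for each of 25 libraries, and an hourly comparison with p-values, q-values and natural log effects. The authors' natural log effects do not state which arm is on top. Set against the counts they ran as wild type over morpholino (correlation of at least 0.99989 at each hour), so their sign was reversed and the base changed to log2. Between 26.6% and 31.1% of a library's estimated counts were not whole and were rounded. Library totals, 12757700 to 36150600, set the precision of low counts. Symbols came from the authors' deposited table for 12 hpf.

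Transcripts were filtered (edgeR filterByExpr, 16967 of 22891 kept), scaled by TMM and fitted by edgeR 4.0.16 quasi-likelihood models with 10 groups (arm by hour) in R 4.3.3, also on sums per symbol. P-values were adjusted by Benjamini-Hochberg over all features of a comparison, with a threshold of 0.05. Contrasts were the mean of the 5 hourly differences, each hour, each arm's slope and the slope difference. SE is the log2 change over the root of its F statistic. CPM use scaled library sizes, and log2 CPM for single libraries a prior count of 2. Transcript usage used diffSpliceDGE. Alternatives used DESeq2 1.42.0 and limma 3.58.1. The code was tested on simulated data.

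Replicate numbers pair the wild-type libraries across hours (all 10 correlations of deviations from 0.103 to 0.172). In the morpholino arm replicate 1 (0.124 to 0.426) and replicate 3 (0.250 to 0.535) did so in all 10 pairs each. Morpholino replicate 2 did in part (7 of 10 over 0.1). Between the arms replicate 1 correlated in part (4 of 5 same-hour and 18 of 20 other-hour values over 0.1) and replicate 2 did not (0 of 5). The numbers were therefore not taken to pair the arms. Members, role classes and pathway lists were chosen with earlier results of these data known. Named transcripts are the up to 12 called on the average with the smallest adjusted p, the 5 with the smallest adjusted p in usage, the 3 of highest TPM and the 2 called per pathway list with the smallest p; others are named as parts of counts, and 1 gene's own results are not reported here. No sequences are shown.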

Additional observations from a re-analysis of the deposited data

Results flagged for a closer look

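The minor srsf5a transcript (ENSXETT00000022818.3) moved in opposite directions at neighbouring hours. At 12 hpf all morpholino libraries were at 0 and below both wild-type libraries, with a fitted log2 difference of -6.51 that depends on the prior count and bounds nothing. At 13 hpf all morpholino libraries were above both wild-type libraries, with a fitted difference of 2.34. The contrast between these hours was not tested, and the transcript stayed at or under 2.28 CPM in all libraries.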

How the results depend on the processing

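Size factors, rounding and the stricter filter kept the average counts near the 33 risen and 0 lower transcripts and the 34 risen and 1 lower symbols. With no filter on low counts 27 transcripts rose and 0 fell, against 9.67% and 9.15% of all 21791. A minimum mean of 1 CPM gave 1 higher call at single hours. DESeq2 gave 1 lower transcript on the average, 1 higher slope in the morpholino arm, 8 lower slopes in wild type, and 2 higher and 1 lower calls at single hours. Leaving out morpholino replicate 3 gave 8 lower transcripts and 8 lower symbols on the average. It also gave 1 higher and 72 lower slopes in the morpholino arm, 2 higher and 70 lower in wild type, 24 higher and 4 lower calls over the hours, and 1 usage call. Limma's diffSplice gave 2 usage calls.

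The replicate number as a block gave 12 risen and 2 lower transcripts, 14 risen symbols, 29 and 36 lower slopes in the morpholino arm and wild type, and 3 higher calls at single hours. Between the arms, replicate 1 deviated together in part and replicate 2 did not, so the pairing is unsettled. Replicate 3 has no wild-type library, so with this block the average difference rests on replicates 1 and 2. Nested in the arm, the block gave 29 and 35 lower slopes. Wild type 1 hour younger gave 3 risen transcripts, 2 risen and 0 lower symbols. Wild type 2 hours younger gave 1 risen transcript, 1 risen and 0 lower symbols. The hours 14 to 16 alone gave 7 risen transcripts, 13 risen and 0 lower symbols. Sums over the hours, 3 morpholino against 2 wild-type sums, gave 0 risen transcripts, 0 risen and 0 lower symbols. There edgeR called 0 of all 18126 transcripts. In that fit 5 splicing factor transcripts and 1924 of all transcripts had an unadjusted p under 0.05 (edgeR).

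Combining these with leaving out morpholino replicate 3 was chosen after seeing the data. Wild type 2 hours younger then gave 1 risen and 25 lower transcripts, 1 risen and 27 lower symbols. Wild type 1 hour younger gave 6 risen and 13 lower transcripts, 5 risen and 10 lower symbols. The hours 14 to 16 gave 17 risen and 5 lower transcripts, 22 risen and 7 lower symbols. In the first of these, differences reversed for sf3b1 (-0.0219), prpf38b (-0.0354), snrpc (-0.0388), srsf2 (-0.0607), srsf4 (-0.24), snrpa (-0.0950), hnrnpab (-0.16), hnrnpa1 (-0.11) and hnrnpk (-0.38), and in the second for hnrnpk (-0.11). The causes were not tested.

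Leaving out single libraries gave 11 to 44 risen and 0 to 1 lower transcripts, 17 to 47 risen and 0 to 3 lower symbols. Slopes in the morpholino arm had 0 to 2 higher and 5 to 64 lower, slopes in wild type 0 to 26 lower, single hours 0 to 5 higher calls, and usage 0 to 1 call. Risen transcripts were 11 to 13 without wild-type replicate 1 at any 1 hour, 20 without wild-type replicate 2 at 14 or 16 hpf, and 20, 19 and 16 without morpholino replicate 3 at 12, 13 and 14 hpf. Risen symbols were 17 or 18 without wild-type replicate 1 at any 1 hour. Lower slopes in the morpholino arm were 5 without its replicate 3 at 12 hpf and 9 without its replicate 2 at 12 or 16 hpf. The 64 and 26 lower slopes came without morpholino replicate 3 at 16 hpf. The hour that loses a wild-type library keeps 1, assumed to vary like the other groups. Shares of all tested transcripts in the fits that leave out 1 library are not given here. The calls of srsf5a, the pair of srsf1, sf3b1, prpf4b, prpf38b, SF3B3, srsf6, snrpc, srsf2 and snrpa held without any single library. That of hnrnpab was lost in 17 of 25 such fits, hnrnpa1 in 5 and srsf4 in 2. At this depth the scarcer prpf6 transcript had no usable estimate.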
